A study of Mus musculus with 6 samples.

Results

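The mRNA levels of the interferon-induced poly(ADP-ribose) polymerase (PARP) genes Parp9, Parp10, Parp11, Parp12 and Parp14 and of their partner gene Dtx3l were compared in the hippocampus of wild-type (WT) and transgenic (TG) mice. These 6 genes were found by symbol among the 54532 genes of the deposited expression table, with 1 row for each symbol. Each group had 3 libraries, named WT1, WT2, WT3, TG1, TG2 and TG3 after their replicate numbers, which the labels describe as separate mice. The TG mice carried the amino acid changes G82R and L85P in the endogenous Slc1a2 gene, which encodes the astrocytic glutamate transporter GLT-1. They were made by CRISPR/Cas9 editing of C57BL/6N zygotes, and founders were bred to C57BL/6 mice, with WT littermates as controls. The knock-in acts in every cell that transcribes Slc1a2, since no Cre or transgene promoter was used. The labels list no agent for either group, the methods describe heterozygous F1 animals, and the ages and zygosity of the sequenced mice are not given in the sources used here. The question was whether expression differed between WT and TG hippocampus.

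PARP enzymes use NAD+ to attach ADP-ribose to proteins or nucleic acids. Most of the family members studied here are mono-ADP-ribosyltransferases that attach single units, in contrast to PARP1, which builds long chains in DNA repair. Interferons signal through cell-surface receptors and JAK kinases to transcription factors in the nucleus, and this response raises transcription of several PARP genes in many cell types. PARP9 pairs with the ubiquitin ligase DTX3L, and the 2 proteins work together in interferon responses and DNA repair.

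Expression was measured as fragments per kilobase of gene, scaled to library size (FPKM), on 16081281 to 18751057 reads on genes per library. A gene of 1 kb with 3 reads had an FPKM of 0.160 to 0.190 at this depth. The groups were compared with limma on log2(FPKM + 0.1) over 20952 genes (those whose FPKM averaged 0.1 or more), with Benjamini-Hochberg adjusted p-values and a threshold of 0.05. All 6 genes passed the filter. Slc1a2 itself ranged from 177 to 202 FPKM in WT mice and from 207 to 222 in TG mice (log2 fold change 0.16, limma unadjusted p = 0.102), and since the edit changes codons this does not check the genotypes. The 6 markers of hippocampal neurons had FPKM of 4.63 to 91.0 in all libraries, with sums of 186 to 228 in WT mice and 191 to 205 in TG mice. TG1 and TG2 stood apart in transcripts of the choroid plexus, which secretes cerebrospinal fluid. The summed FPKM of its 10 markers was 57.4 to 82.0 in WT mice, 1210 in TG1, 3822 in TG2 and 65.9 in TG3, so the sum of TG3 alone among TG mice lay inside the WT range. Values with the mean of these markers as a covariate, and of TG3 alone against the WT mice, are given with each gene. In the latter the TG arm is 1 library, assumed to vary like the WT libraries, so no p-value is given for it.

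The promoters of the genes that the RefSeq table of start sites covered are shown first, because factors activated by interferon bind short DNA motifs near gene starts. The table, in GRCm38.p6 coordinates, held Parp11 (2 start sites), Parp12 and Dtx3l, and each window ran from 250 bases before to 50 bases after the start. Both strands were searched for the core of the interferon-stimulated response element, GAAA followed by any 2 bases and GAAA again, and for the core of the interferon gamma-activated site, TTCNNNGAA. The first was present in 3.44% and the second in 8.3% of all 32851 windows. Among the windows of these genes, only the first Parp11 start held them, with 1 match to each motif. The matches lay 44 to 35 bases and 37 to 29 bases before the start, so they overlapped, and they are in capitals in the sequence below. The first was a match on the reverse strand (TTTCGATTTC) and the second read TTCTTGGAA. The upstream sequence of Parp11 is shown for these matches, and the exon-free upstream bases of Dtx3l and Parp12 are shown for comparison, in lower case as neither motif was found in their windows. Such matches describe letters only.
Parp11, plus strand, chr6:127446590-127446839: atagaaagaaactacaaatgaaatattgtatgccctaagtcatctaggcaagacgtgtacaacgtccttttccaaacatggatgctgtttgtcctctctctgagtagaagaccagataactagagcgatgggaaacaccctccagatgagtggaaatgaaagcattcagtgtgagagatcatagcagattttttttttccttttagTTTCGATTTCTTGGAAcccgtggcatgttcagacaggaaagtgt
Dtx3l, minus strand, chr16:35939207-35939277: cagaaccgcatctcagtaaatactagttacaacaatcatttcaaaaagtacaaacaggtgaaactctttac
Parp12, minus strand, chr6:39118350-39118472: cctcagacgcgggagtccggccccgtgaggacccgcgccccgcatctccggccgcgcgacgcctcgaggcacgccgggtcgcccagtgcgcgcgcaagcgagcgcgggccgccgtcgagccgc

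Parp14 showed the widest difference of the 6 genes, with the 3 TG libraries above the 3 WT libraries, followed by Parp9. Dtx3l, Parp10 and Parp12 had positive log2 fold changes with intervals that included 0, and Parp11 had a value close to 0. At an unadjusted p under 0.05, 1 of the 6 genes was higher in TG mice, beside 3.13% of all genes tested, and 0 were lower, beside 2.78%. At an adjusted p under 0.05, 0 of 6 passed with limma, beside 0.00477% of all genes in each direction. In 2 of 6 genes all TG libraries lay above all WT libraries, beside 6.35% of all genes, and in 0 of 6 all TG libraries lay below, beside 5.71%. Log2 fold changes were above 0 in 5 of 6 genes, beside 49.6% of all genes, and their median was 0.28, beside -0.0020 over all genes tested. In whole tissue, a change in the number of cells that express a gene and a change in RNA per cell cannot be told apart.

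**Figure D1:**
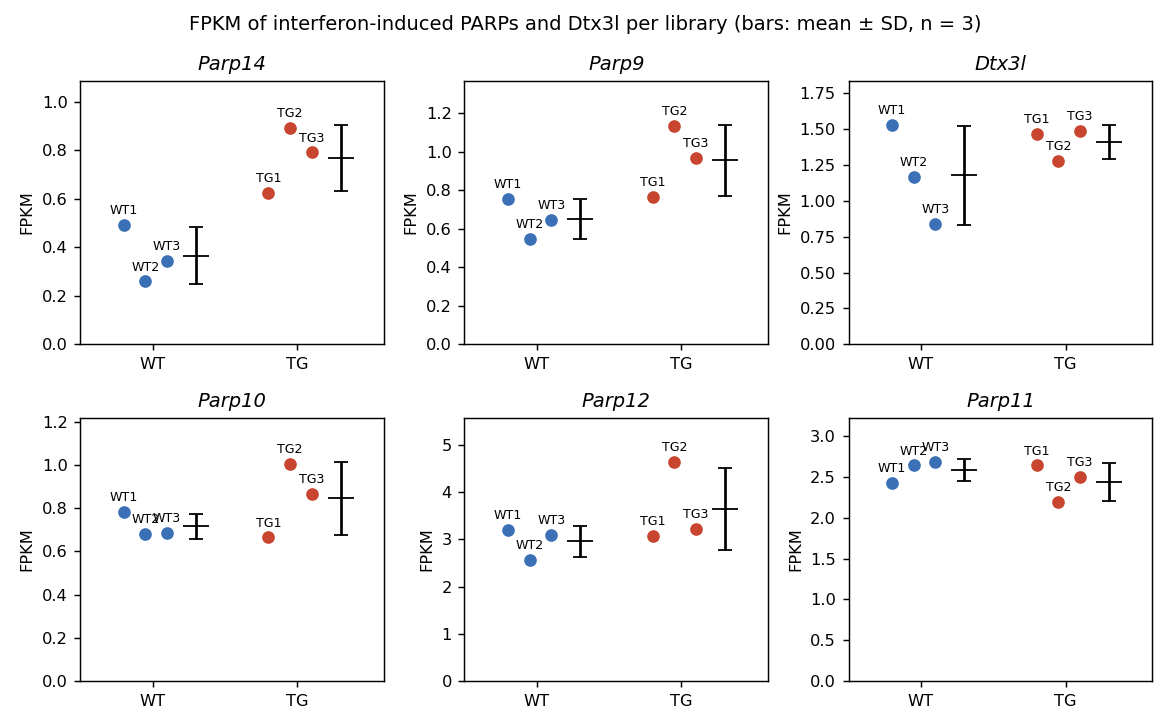
FPKM (vertical axes, each starting at 0) of the 6 genes in each WT library (blue) and TG library (red), with the mean ± SD of n = 3 as black bars. Parp14 and Parp9 have all TG points above all WT points, with a narrow gap for Parp9, and the groups overlap in the other 4 genes.

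Parp14 (ENSMUSG00000034422, chromosome 16 from 35832874 to 35871544, minus strand, GRCm38) encodes a large mono-ADP-ribosyltransferase with macrodomains that bind ADP-ribose, and it was first studied as a cofactor of STAT6. Its FPKM was 0.494, 0.259 and 0.344 for WT1, WT2 and WT3, against 0.625, 0.893 and 0.791 for TG1, TG2 and TG3, on 39 to 149 reads per library. All TG libraries lay above all WT libraries, with TG1 nearest to the WT mice and WT1 the highest of them. The gap between WT1 and TG1 was 0.131 FPKM, where 1 read of TG1 is worth 0.00679. The exact 95% Poisson intervals, which cover counting error only, were 0.395 to 0.611 for WT1 and 0.504 to 0.766 for TG1, so these libraries could not be told apart by their reads alone. The mean was 0.366 ± 0.119 for WT against 0.770 ± 0.136 for TG mice (SD, n = 3 each), which is 2.10-fold higher. The log2 fold change was 0.92 (standard error 0.271, 95% confidence interval 0.28 to 1.55), with a limma unadjusted p of 0.0109 and an adjusted p of 0.786. A two-sided exact permutation test gave p = 0.1, the smallest that 3 against 3 libraries allow. Parp14 is among the genes that the study displays for TG mice, and those were chosen on these same libraries, so its direction is not independent evidence. With the choroid plexus markers as a covariate the log2 fold change was 0.84 (unadjusted p = 0.0787, limma), and TG3 alone against the WT mice gave 0.97.

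Parp9 (ENSMUSG00000022906, chromosome 16 from 35938470 to 35972605, plus strand) encodes a macrodomain protein that forms a complex with DTX3L. The FPKM was 0.755, 0.546 and 0.647 for WT1, WT2 and WT3, against 0.765, 1.13 and 0.966 for TG1, TG2 and TG3, on 43 to 99 reads. TG2 and TG3 stood above the WT mice, while TG1 exceeded WT1 by 0.0104 FPKM, less than the 0.0130 that 1 read in TG1 is worth. The mean was 0.649 ± 0.104 for WT against 0.955 ± 0.184 for TG mice (SD, n = 3 each). The log2 fold change was 0.49 (standard error 0.216, 95% confidence interval -0.02 to 0.99), with a limma unadjusted p of 0.0569 and an adjusted p of 0.786, and the exact permutation test gave p = 0.1. Without TG1 it was 0.62 (unadjusted p = 0.0328, limma) and without TG2 it was 0.37 (unadjusted p = 0.169, limma). With the choroid plexus markers as a covariate Parp9 had 0.40 (unadjusted p = 0.255, limma), and TG3 alone gave 0.52.

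Dtx3l (ENSMUSG00000049502, chromosome 16 from 35926511 to 35939151, minus strand) encodes an E3 ubiquitin ligase of the Deltex family. Its FPKM was 1.53, 1.17 and 0.840 for WT1, WT2 and WT3, against 1.47, 1.28 and 1.49 for TG1, TG2 and TG3. The highest value was in a WT mouse, WT1, and the lowest was in WT3, so the TG libraries fell inside the WT range. The mean was 1.18 ± 0.346 for WT against 1.41 ± 0.117 for TG mice (SD, n = 3 each). The log2 fold change of 0.27 (standard error 0.220, 95% confidence interval -0.24 to 0.79) had a limma unadjusted p of 0.252 and an adjusted p of 0.789, and the exact permutation test gave p = 0.4. Without WT3, Dtx3l had a log2 fold change of 0.07 (unadjusted p = 0.713, limma), and without WT1 it was 0.47 (unadjusted p = 0.0638, limma). It was 0.34 with the choroid plexus covariate (unadjusted p = 0.335, limma) and 0.35 for TG3 alone.

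PARP9 and DTX3L act as a pair, so the ratio of their FPKM was taken in each library. It was 0.493, 0.468 and 0.770 for WT1, WT2 and WT3, against 0.521, 0.888 and 0.649 for TG1, TG2 and TG3. The groups overlapped, and the log2 ratio differed by 0.25 (two-sided exact permutation test, p = 0.5). Parp9 and Dtx3l lie head to head and overlap by 682 bases. Of their exon bases, 458 are shared on opposite strands, which is 9.40% of Parp9 and 8.0% of Dtx3l. The strand setting of the counting is not given in the sources used here, so reads in that stretch may count for either gene or for neither. Of the 50-base stretches in Dtx3l transcripts, 8.09% also occur in transcripts of other genes, against 7.71% for Parp9, 3.59% for Parp10, 0.667% for Parp14 and none for Parp11 and Parp12. Both strands were searched, so these shares can include overlapping exon bases. Parp9, Parp10 and Parp14 each shared stretches with 1 other gene, and Dtx3l with 498.

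Parp10 (ENSMUSG00000063268, chromosome 15 from 76231174 to 76243441, minus strand) encodes a mono-ADP-ribosyltransferase that was found as a partner of MYC. The FPKM was 0.784, 0.681 and 0.687 for WT1, WT2 and WT3, against 0.665, 1.005 and 0.868 for TG1, TG2 and TG3. TG2 and TG3 lay above the WT mice and TG1 was the lowest library of all, so the groups overlapped. The mean was 0.717 ± 0.0581 for WT against 0.846 ± 0.171 for TG mice (SD, n = 3 each), with a log2 fold change of 0.20 (standard error 0.206, 95% confidence interval -0.29 to 0.68, limma unadjusted p = 0.370 and adjusted p = 0.816, exact permutation p = 0.4). Without TG2, Parp10 had a log2 fold change of 0.08, and without TG1 it was 0.34 (unadjusted p = 0.125, limma). It was 0.13 with the choroid plexus covariate (unadjusted p = 0.686, limma) and 0.25 for TG3 alone. Of its exon bases, 4.80% also belong to Plec on the same strand, a gene with an FPKM of 11.3 in WT against 13.7 in TG mice (log2 fold change 0.28, limma unadjusted p = 0.098).

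Parp12 (ENSMUSG00000038507, chromosome 6 from 39086410 to 39118349, minus strand) encodes a zinc-finger mono-ADP-ribosyltransferase of the Golgi with antiviral activity. Its FPKM was 3.21, 2.57 and 3.09 for WT1, WT2 and WT3, against 3.07, 4.65 and 3.23 for TG1, TG2 and TG3, on 166 to 333 reads. Only TG2 stood clearly above the others, TG3 was close to WT1, and TG1 lay within the WT range. The mean was 2.96 ± 0.338 for WT against 3.65 ± 0.870 for TG mice (SD, n = 3 each), with a log2 fold change of 0.28 (standard error 0.176, 95% confidence interval -0.14 to 0.69, limma unadjusted p = 0.159 and adjusted p = 0.789, exact permutation p = 0.3). Without TG2, which also had the most choroid plexus transcripts, Parp12 had a log2 fold change of 0.09 (unadjusted p = 0.516, limma). With the choroid plexus covariate Parp12 fell to 0.02 (unadjusted p = 0.916, limma), and TG3 alone gave 0.13. TG1, which was also high in choroid plexus markers, had Parp12 within the WT range. These markers were high in TG libraries only, and their part in the Parp12 values was not tested.

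Parp11 (ENSMUSG00000037997, chromosome 6 from 127446840 to 127494261, plus strand) encodes a mono-ADP-ribosyltransferase linked to the nuclear pore. The motif matches in capitals above lie at the first of its start sites only. The FPKM was 2.43, 2.64 and 2.69 for WT1, WT2 and WT3, against 2.64, 2.19 and 2.498 for TG1, TG2 and TG3, on 276 to 354 reads. The groups overlapped and TG2, where 4 of the other genes were at their highest, had the lowest Parp11 value of all libraries. The mean was 2.59 ± 0.138 for WT against 2.44 ± 0.231 for TG mice (SD, n = 3 each). The log2 fold change of -0.08 (standard error 0.116) had a 95% confidence interval of -0.36 to 0.19, an unadjusted p of 0.501 and an adjusted p of 0.865 with limma, and an exact permutation p of 0.6. Without TG2, Parp11 had a log2 fold change of -0.0089, and without TG1 it was -0.14 (unadjusted p = 0.298, limma). With the choroid plexus covariate the sign turned, to 0.0050 (unadjusted p = 0.978, limma), and TG3 alone gave -0.05.

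**Figure D2:**
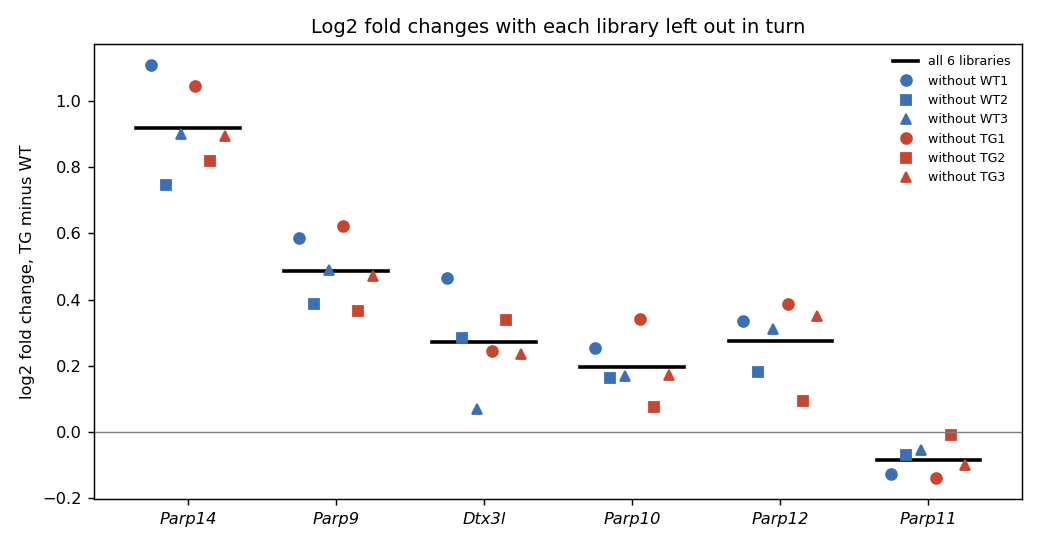
Log2 fold change (TG minus WT, on log2(FPKM + 0.1), vertical axis) of each gene with all 6 libraries (black line) and with 1 WT library (blue) or 1 TG library (red) left out. Parp14 stays between 0.75 and 1.11 and Parp9 between 0.37 and 0.62, while Dtx3l falls to 0.07 without WT3, Parp10 to 0.08 without TG2 and Parp12 to 0.09 without TG2.

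By FPKM, which corrects for gene length, Parp12 and Parp11 were the most abundant of the 6 genes, then Dtx3l, and Parp14 was the lowest in every library. Parp12 ranked above Parp11 in all libraries but WT2. Parp10 ranked above Parp9 in all 3 WT libraries, and Parp9 ranked above Parp10 in all 3 TG libraries. The FPKM ranges of Parp9 and Parp10 overlapped within each group, although their order was the same in all libraries of a group. Whether this order differs between the groups was not tested. Parp14 had a higher mean FPKM than 28.3% of the genes tested and Parp12 than 55.0%. The ratio of Parp14 to Parp12 was 0.101 to 0.154 in WT mice and 0.192 to 0.245 in TG mice. Whether the fold changes of the 6 genes differ from each other was not tested.

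The 3 TG libraries differed among themselves. The median log2 deviation of the 6 genes from their WT means was 0.16, -0.13 and -0.02 for WT1, WT2 and WT3, against 0.14, 0.54 and 0.30 for TG1, TG2 and TG3, so TG1 lay just below WT1. Of the 6 genes, 2 exceeded the highest WT value in TG1, and 4 did so in each of TG2 and TG3. The share of all genes that did so in a single library was not taken. The 6.35% given above is for the 3 TG libraries together, so it is not the share for these counts. The summed FPKM of the 6 genes was 9.21, 7.87 and 8.30 for WT1, WT2 and WT3, against 9.24, 11.1 and 9.84 for TG1, TG2 and TG3. Across the 6 libraries, Parp10 and Parp12 had the most similar deviations (root mean square difference 0.134 on the log2 scale), and Parp11 and Parp14 the least similar (0.778).

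**Figure D3:**
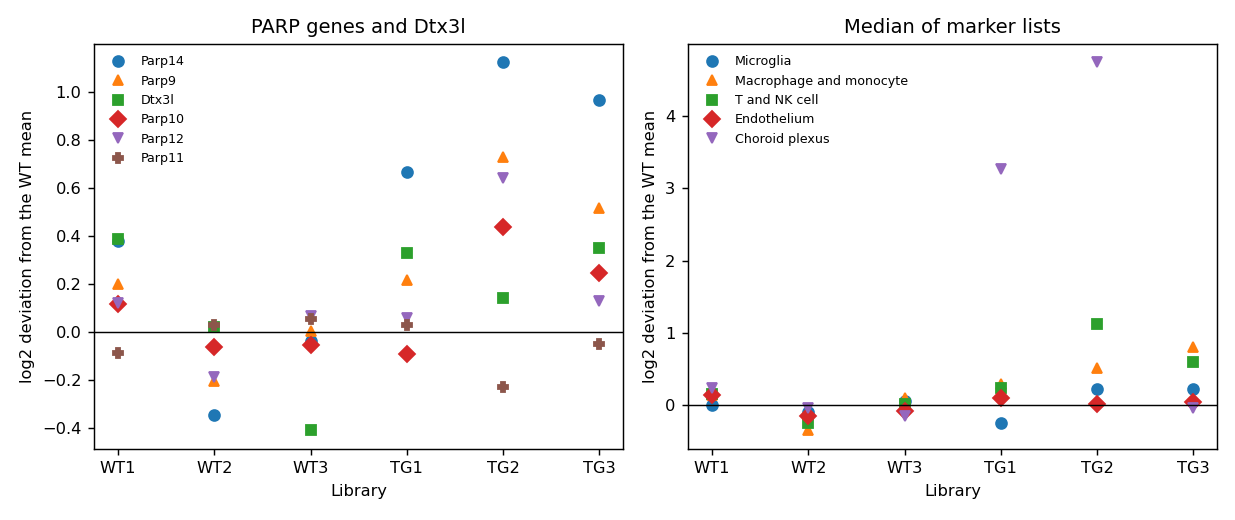
Log2 deviation from the WT mean (vertical axis) in each library, for the 6 genes (left) and as the median of 5 marker lists (right, wider scale). Most genes are highest in TG2, and the choroid plexus markers are high in TG1 and TG2 and near the WT mean in TG3.

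Markers of other cells were read beside these values. Over all genes tested, 3.13% were higher and 2.78% lower at an unadjusted p under 0.05 in limma, the shares for the counts below. The summed FPKM of 8 microglia markers was 170 to 194 in WT mice and 154 to 215 in TG mice, and 1 of the 8, Csf1r, had an unadjusted p under 0.05 (log2 fold change 0.19, limma unadjusted p = 0.045). For 5 macrophage and monocyte markers the sum was 6.73 to 11.8 in WT mice and 10.6 to 19.0 in TG mice. Lyz2 made up most of this sum in every library, with FPKM of 5.69 to 10.4 in WT mice and 8.79 to 16.8 in TG mice. It was also the 1 gene of 4 tested with an unadjusted p under 0.05 (log2 fold change 0.75, limma unadjusted p = 0.032). The 7 T and NK cell markers summed to 0.314 to 0.529 in WT mice and 0.635 to 1.496 in TG mice, and 0 of the 4 tested had an unadjusted p under 0.05 in limma. The 4 B cell markers summed to 0.244 to 0.343 in WT mice and 0.251 to 0.984 in TG mice, and 0 of the 2 tested had an unadjusted p under 0.05 in limma. No marker of these lists was at 0 in all libraries, but Ms4a1 was at 0 in all WT mice with 3 reads in each TG mouse, and Klrb1c was at 0 in all TG mice. The 6 endothelial markers summed to 49.5 to 56.9 in WT mice and 53.0 to 57.8 in TG mice, with Flt1 the 1 gene at an unadjusted p under 0.05 (log2 fold change 0.24, limma unadjusted p = 0.040). All 6 oligodendrocyte markers had negative log2 fold changes with a median of -0.29, and 0 of them had an unadjusted p under 0.05 in limma. Their sum was 578 to 726 in WT mice and 450 to 674 in TG mice, with TG1 the lowest. In 2 of these 6 markers, Mog and Cldn11, all TG libraries lay below all WT libraries, beside 5.71% of all genes. The part of macrophages, lymphocytes, endothelium and oligodendrocytes in the PARP values was not tested. A fit with the mean of the microglia markers as a covariate, added after seeing the data, gave log2 fold changes of 0.83 for Parp14 (unadjusted p = 0.0166, limma), 0.41 for Parp9 (unadjusted p = 0.0772, limma), 0.28 for Dtx3l, 0.13 for Parp10, 0.21 for Parp12 and -0.05 for Parp11. Of the choroid plexus markers, 6 of 10 had an unadjusted p under 0.05 (Ttr, Kl, Kcnj13, Slc4a5, Cldn2 and Tmem72), all of them higher in TG mice. In TG3, 3 of the 10 (Kl, Kcnj13 and Tmem72) exceeded all WT libraries, and the share of all genes that did so in TG3 was not taken.

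Parp14, Dtx3l and Parp9 lie in a block of 139.7 kb on chromosome 16, with 55.0 kb between Parp14 and Dtx3l. The 3 nearest protein-coding genes on each side were Sema5b, Dirc2, Hspbap1, Kpna1, Wdr5b and Fam162a. Their log2 fold changes lay between -0.25 for Fam162a and 0.06 for Sema5b, and 0 of the 6 had an unadjusted p under 0.05 in limma. Hspbap1, which lies 4.40 kb from Parp14, had an FPKM of 0.542 ± 0.0319 for WT against 0.542 ± 0.0307 for TG mice (SD, n = 3 each). Kpna1, which lies 6.14 kb from Parp9, had 17.8 ± 0.544 and 17.9 ± 0.747 FPKM (SD, n = 3 each). Of the 24 nearest genes around all 6 genes, 21 were tested. Beside 3.13% of all genes tested, 1 of the 21 was higher at an unadjusted p under 0.05. This was Kdm7a, a histone demethylase gene 18.3 kb from Parp12, with 6.18 ± 0.268 FPKM for WT against 7.66 ± 0.153 for TG mice (SD, n = 3 each, log2 fold change 0.31, limma adjusted p = 0.786).

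**Figure D4:**
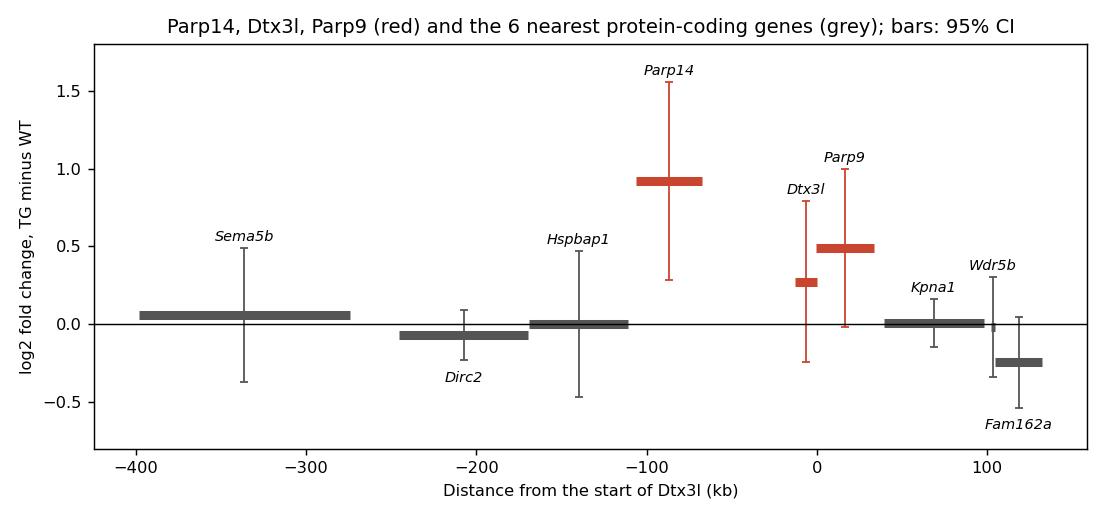
Log2 fold change (TG minus WT, vertical axis) with 95% confidence interval for Parp14, Dtx3l and Parp9 (red) and their 6 nearest protein-coding genes (grey), against the distance in kb from the start of Dtx3l. Horizontal bars span each gene. The neighbours lie between -0.25 and 0.06, and Parp14 lies at 0.92.

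The remaining PARP family was compared on a list of 11 genes, all tested. Of these, 0 had an unadjusted p under 0.05 in either direction in limma, beside 3.13% higher and 2.78% lower of all genes tested. Log2 fold changes were positive in 7, beside 49.6% of all genes tested. The median was 0.05, beside 0.28 for the 6 genes above. Parp1, the DNA damage sensor, was the most abundant with 22.6 ± 2.36 FPKM for WT against 23.0 ± 1.75 for TG mice (SD, n = 3 each). Tiparp, a mono-ADP-ribosyltransferase induced by the aryl hydrocarbon receptor, had the smallest p (log2 fold change 0.22, limma unadjusted p = 0.055). Its FPKM was 4.31, 5.26 and 5.04 for WT1, WT2 and WT3, against 5.58, 5.72 and 5.72 for TG1, TG2 and TG3, so the groups did not overlap. In 2 of the 11 genes, Tiparp and Parp3, all TG libraries lay above all WT libraries, beside 6.35% of all genes. In 1, Parp6, all TG libraries lay below all WT libraries, beside 5.71% (log2 fold change -0.08, limma unadjusted p = 0.265). Parp3, which acts in the repair of DNA breaks, Parp6 and Zc3hav1 were chosen after their values were seen. Parp3 had the largest log2 fold change of the list, 0.42 (limma unadjusted p = 0.0695), with FPKM of 1.02, 0.921 and 0.679 for WT1, WT2 and WT3, against 1.04, 1.30 and 1.24 for TG1, TG2 and TG3, all above the WT libraries. Zc3hav1, the interferon-responsive antiviral zinc-finger protein also called PARP13, had an FPKM of 1.32 ± 0.281 for WT against 1.64 ± 0.264 for TG mice (SD, n = 3 each, log2 fold change 0.29, limma unadjusted p = 0.177).

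The other Deltex genes, relatives of Dtx3l that encode ubiquitin ligases, numbered 4. Beside 3.13% of all genes tested, 1 of the 4 was higher at an unadjusted p under 0.05. This was Dtx1, a regulator of Notch signalling, with an FPKM of 17.0, 17.1 and 15.0 for WT1, WT2 and WT3, against 20.6, 18.6 and 18.4 for TG1, TG2 and TG3. The TG libraries were all above the WT libraries (log2 fold change 0.23, standard error 0.081, limma unadjusted p = 0.024 and adjusted p = 0.786), and TG1 was the highest. Dtx3, the most abundant, had 62.8 ± 5.38 FPKM for WT against 56.6 ± 2.02 for TG mice (SD, n = 3 each, log2 fold change -0.15, limma unadjusted p = 0.114). Over the list, log2 fold changes had a median of 0.19. In 3 of the 4 genes, Dtx1, Dtx2 and Dtx4, all TG libraries lay above all WT libraries, beside 6.35% of all genes. In 0 of the 4 all TG libraries lay below, beside 5.71%. Dtx2 (log2 fold change 0.22, limma unadjusted p = 0.137) and Dtx4 (0.15, limma unadjusted p = 0.0877) were named after their values were seen.

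**Figure D5:**
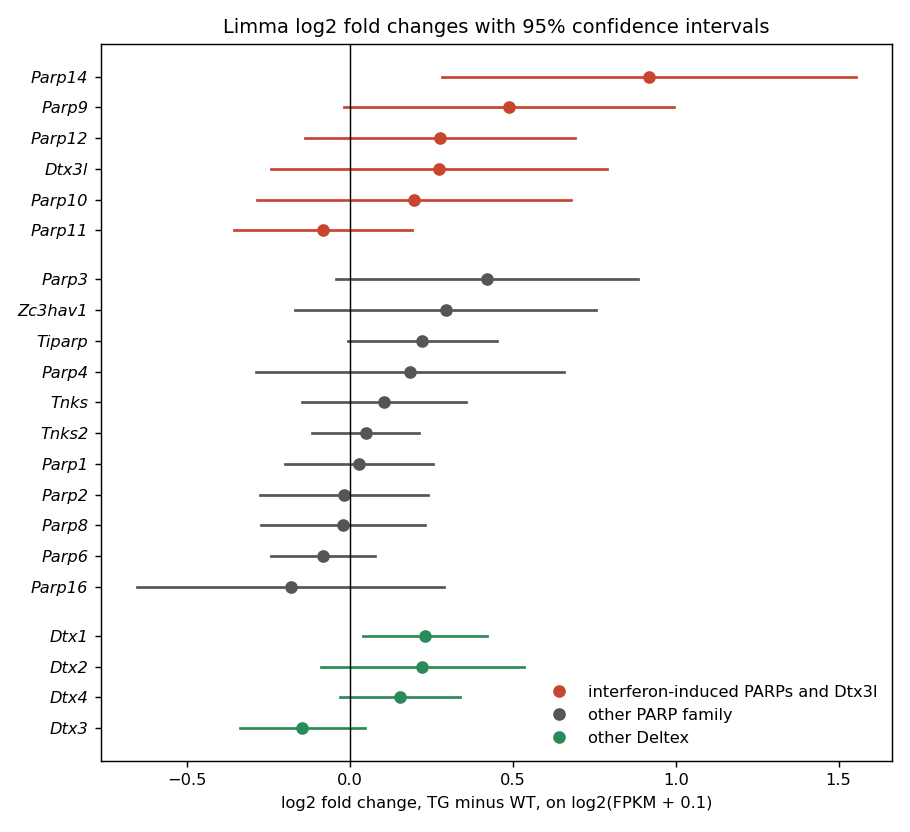
Log2 fold changes (TG minus WT, horizontal axis) with 95% confidence intervals from limma for the 6 genes (red), 11 other PARP family genes (grey) and 4 other Deltex genes (green). The intervals of Parp14 and Dtx1 exclude 0, and all others include it.

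Enzymes that remove or read ADP-ribose did not pass the test. Of 7 such genes, 6 were tested and 0 had an unadjusted p under 0.05 in limma, with a median log2 fold change of -0.07. Over all genes tested, 3.13% were higher and 2.78% lower at that threshold. In 0 of the 6 all TG libraries lay above all WT libraries, beside 6.35% of all genes. In 1, Macrod2, named after its values were seen, all TG libraries lay below, beside 5.71% (log2 fold change -0.12, limma unadjusted p = 0.189). Adprh, which cleaves ADP-ribose from arginine, was the most abundant with 31.9 ± 3.59 FPKM for WT against 29.1 ± 2.28 for TG mice (SD, n = 3 each). Oard1, which cleaves it from glutamate, had the smallest p (log2 fold change -0.20, limma unadjusted p = 0.075).

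The upstream interferon pathway was read on 12 genes of receptors, kinases and transcription factors. Of these, 1 was higher at an unadjusted p under 0.05 and 0 were lower, beside 3.13% and 2.78% of all genes tested. Log2 fold changes were positive in 8, beside 49.6% of all genes tested, and the median was 0.09. The gene that was higher was Irf7, the master factor of type I interferon induction, with a log2 fold change of 1.02 (limma unadjusted p = 0.002, adjusted p = 0.786). Its FPKM was 0.573, 0.443 and 0.410 for WT1, WT2 and WT3, against 0.937, 1.27 and 0.982 for TG1, TG2 and TG3, with no overlap and the highest value in TG2. Irf7 is also displayed by the study and was chosen there on these libraries, so it is not independent evidence. Jak1, the most abundant, had 28.9 ± 0.299 FPKM for WT against 27.8 ± 2.33 for TG mice (SD, n = 3 each). In 3 of the 12 genes, Ifnar1, Stat2 and Irf7, all TG libraries lay above all WT libraries, beside 6.35% of all genes. In 0 of the 12 all TG libraries lay below, beside 5.71%. Of 11 interferon genes themselves, 10 had 0 reads in all libraries and Ifng had 1 read in TG2, so none was tested. A count of 0 allows up to 3 reads per library.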

How the data were processed

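The authors extracted hippocampal RNA from 3 WT and 3 TG mice, sequenced it on an Illumina HiSeq instrument, counted reads per gene with HTSeq and deposited FPKM values, 1 column per library. The methods name Trizol and a NEBNext Ultra kit, while the labels name RNeasy and SMARTer kits. The submitters' processing notes name GRCm38 and mm10. The aligner and strand setting are not given in the sources used here. All 6 genes had the same coordinates in the GENCODE M21 annotation.

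FPKM times gene length gave whole reads for 100% of values in each library (tolerance 0.05 reads), which gave reads per gene of 16081281 to 18751057 in total. Of 54532 genes, those averaging an FPKM of 0.1 or more, 20952 genes, were tested with limma 3.58.1 in R 4.3.3 (lmFit, eBayes with a variance trend) on log2(FPKM + 0.1), which understates the fold changes of low genes. No covariate or block was used. p-values measure the spread among these 3 mice per group, and in limma the variance of each gene is also drawn toward a trend over all genes tested. Single values were compared with two-sided exact permutation tests. The fit was tested on simulated data. Shared sequence was the share of 50-base stretches found in transcripts of other genes, and promoter sequences came from RefSeq (GRCm38.p6). Deviations of same-numbered WT and TG libraries from their group means had correlations of 0.0125, 0.0434 and 0.00314. Those of libraries with different numbers lay between -0.0274 and 0.0159. The sources used here do not say whether the numbers pair mice, and correlations over 3 libraries per group cannot settle it. Python 3.11.15 was used for summaries.

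The named genes were the 6 genes, the 3 nearest protein-coding genes on each side of the chromosome 16 block, the most abundant gene, the gene with the smallest p and every gene with an unadjusted p under 0.05 of each PARP, Deltex, ADP-ribose, interferon and NAD+ list (not of the cell type markers), and the 5 protein-coding genes with the most similar profile. The genes, lists and tests were chosen with earlier results of these data known. Alternatives covered pseudocount, filter, scaling, variance model, voom on recovered reads, biotype, left-out libraries, the replicate block and marker covariates. Results of some genes of the lists are not reported here.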

Additional observations from a re-analysis of the deposited data

How the results depend on the processing

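The median log2 fold change of the 6 genes stayed between 0.19 and 0.40 over 19 alternatives. That of Parp14 lay between 0.37 (pseudocount 1) and 1.11 over 18 alternatives, with an unadjusted p under 0.05 in 16 of them, the exceptions being the choroid plexus covariate and TG3 alone, where the TG arm is 1 library and the loss of the call says nothing about stability. Parp9 had an unadjusted p under 0.05 in 4 of 18. With Parp11, the choroid plexus covariate turned the direction to 0.0050. The number of the 6 genes higher at an unadjusted p under 0.05, 1 in the report, was 2 without a variance trend, with limma-voom and among protein-coding genes only. The shares of all genes tested were 3.13% in the report and 2.95%, 3.67% and 4.11% in these fits. The number was 0 with a mean FPKM of at least 1 (3 genes tested, without Parp14, beside 3.29% of all genes tested). It was also 0 with the choroid plexus covariate (beside 1.6%). Leaving out each library in turn gave 1 to 2 (2 without TG1), beside 2.14% to 3.57% of all genes tested. The number with all TG above all WT, 2 in the report, was 1 with limma-voom and 2 to 4 with each library left out. With a library left out this condition is easier to meet. Shares of all genes were not taken for these settings, so the counts cannot be compared with the 2 in the report. Over all genes at an adjusted p under 0.05, 1 was higher and 1 lower in the report. These became 0 and 0 with either other pseudocount, no filter, limma-voom, protein-coding genes only, the replicate block, either covariate and TG3 alone, 6 and 3 without a variance trend, and 0 higher with a mean FPKM of at least 1. Leaving out each library in turn gave 0 to 6 higher and 0 lower. With the choroid plexus covariate, 335 genes were higher and 376 lower at an unadjusted p under 0.05, in place of 656 and 582. With the replicate block, a pairing that the sources used here do not state, Parp14 had an unadjusted p of 0.0288 (limma) and the block changed no call among the 6 genes. The cause of these changes was not tested. Parp14, Parp9 and Parp10 rest on 39 to 149 reads per library, where counting error alone is wide.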

Other observations

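NAD+ is the substrate of the PARP enzymes that attach ADP-ribose, and 8 genes of its supply and use were read. Of these, 0 had an unadjusted p under 0.05 in limma, beside 3.13% higher and 2.78% lower of all genes tested. The median log2 fold change was -0.01. Nmnat2, the neuronal enzyme that makes NAD+, was the most abundant with 29.8 ± 0.299 FPKM for WT against 30.0 ± 1.08 for TG mice (SD, n = 3 each). Nadsyn1, the NAD+ synthetase, had the smallest p, with 1.11 ± 0.0727 FPKM for WT against 1.31 ± 0.106 for TG mice (SD, n = 3 each, log2 fold change 0.22, limma unadjusted p = 0.177).

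Of 11914 protein-coding genes averaging 1 FPKM or more, Unc93b1, Itgb5, Rp2, Cpne3 and Pcp4l1 had profiles over the 6 libraries most like the median of the 6 PARP and Dtx3l genes. Their root mean square differences from it lay between 0.0526 and 0.0678 on the log2 scale. Unc93b1, which carries Toll-like receptors to endosomes, had an FPKM of 5.54, 4.53 and 5.09 for WT1, WT2 and WT3, against 5.16, 7.07 and 6.22 for TG1, TG2 and TG3, with TG1 inside the WT range and TG2 the highest. Itgb5, an integrin subunit, had FPKM of 15.8, 13.4 and 14.3 for WT1, WT2 and WT3, against 16.04, 20.4 and 16.3 for TG1, TG2 and TG3, with all TG libraries above the WT libraries. The likeness was the rule by which these genes were chosen, so it is a description over 6 libraries.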
